A study of Mus musculus with 24 samples.

Results

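The type I hair keratins are the 9 genes Krt31, Krt32, Krt33a, Krt33b, Krt34, Krt35, Krt36, Krt39 and Krt40, chosen by symbol from a table of 18892 genes measured in mouse skin. All 9 were found, and all 9 passed the filter on low values that left 13039 genes to be tested. The study gave 24 mice 3 regimens. Control mice were injected with saline and had solvent applied to the skin, model mice were injected with dihydrotestosterone (an androgen) and had the same solvent applied, and treatment mice were injected with dihydrotestosterone and had an extract of HLX (Hanlianxiang, a traditional Chinese medicine formula) applied. Skin of 4 mice of each regimen was taken at day 10 and of 4 other mice at day 15. This makes 6 groups of 4 libraries, each taken here as coming from its own mouse. Every mouse of the model and treatment groups carried the injected androgen, and every mouse of the control and model groups carried the solvent. Strain, sex and age are not given in the sources used here.

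Hair keratins build the intermediate filaments of the hair shaft, the dead fiber that a growing follicle pushes out. Each filament pairs an acidic type I keratin with a basic type II keratin, and the cells of the shaft switch on their keratins in a sequence as they rise from the matrix of the bulb. By background knowledge, mostly from human follicles, Krt35 is among the first to appear, in matrix, cuticle and early cortex cells, Krt31, Krt33a and Krt33b follow in the cortex, and Krt34 comes higher up in it. Krt32 and Krt40 belong to the cuticle, the scale layer around the cortex, Krt39 to cuticle and cortex, and Krt36 is known also from the tongue. In skin, which is a bulk tissue here, fewer follicle cells of a kind and less RNA per cell cannot be told apart.

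The labelled tissue was checked first. The epidermal keratins Krt5 (336 to 783 FPKM) and Krt14 (257 to 633) and the dermal collagen Col1a1 (585 to 3610) were present in all 24 libraries. FPKM corrects the count of a gene for its length and for the size of the library, so levels of different genes can be set side by side. Reads recovered from the FPKM steps added up to 3.7e+07 to 4.11e+07 per library, and a member's own count lay between 806 (Krt36) and 83079 (Krt33a). In 8 libraries, those of control and model skin at day 10, transcripts of kidney tubules were present (Kap at 14.0 to 23.8 FPKM), and Kap was listed at 0 in the other 16. This mark separates treatment from model and control skin at day 10, and day 10 from day 15 in control and in model skin, so in those comparisons it cannot be told apart from the regimen or the day. The level of Kap also differed between control (19.9 to 23.8 FPKM, median 21.5) and model skin at day 10 (14.0 to 20.5, median 15.7). Its part in that comparison was not tested. The Y-linked gene Ddx3y was at 10.4 to 17.5 FPKM in 4 treatment libraries (day 10 replicate 3, day 15 replicates 1, 2 and 4) and at 21.4 to 30.6 in the other 20. Whether each of these 4 libraries holds RNA of a single mouse was not tested. The 4 libraries were kept, and the calls without them are given where they differ. Libraries of a group correlated across genes at 0.943 or more in model and 0.928 or more in treatment skin at day 15, and at 0.979 or more in the other groups.

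The 7 members with an entry in the promoter table of RefSeq (build GRCm38.p6, all on the minus strand of chromosome 11) lie in 2 places. Krt39 (upstream window chr11:99521339-99521588) and Krt40 (chr11:99543221-99543470) are close together, and Krt33b (chr11:100029869-100030118), Krt34 (chr11:100041555-100041804), Krt31 (chr11:100050552-100050801), Krt32 (chr11:100088270-100088519) and Krt36 (chr11:100105627-100105876) follow further along. Krt33a and Krt35 are named only. The 250 bases before the start are shown for 5 of them. Krt31, Krt33b and Krt34 were taken because their levels moved together over the libraries. Krt39 and Krt40 were taken as neighbours whose levels correlated little over the 24 libraries (0.23), though more within groups (0.62). Capitals mark matches, on either strand, to the TATA-like motif TATANA, to CTTTGAA, to TTTTATG and to AGTCCTG, and N stands for any base.
Krt31: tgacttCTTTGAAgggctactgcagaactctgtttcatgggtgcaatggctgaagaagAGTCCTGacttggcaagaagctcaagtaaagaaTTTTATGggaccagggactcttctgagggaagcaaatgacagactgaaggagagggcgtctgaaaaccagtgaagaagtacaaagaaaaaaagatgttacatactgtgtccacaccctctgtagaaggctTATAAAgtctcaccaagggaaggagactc
Krt33b: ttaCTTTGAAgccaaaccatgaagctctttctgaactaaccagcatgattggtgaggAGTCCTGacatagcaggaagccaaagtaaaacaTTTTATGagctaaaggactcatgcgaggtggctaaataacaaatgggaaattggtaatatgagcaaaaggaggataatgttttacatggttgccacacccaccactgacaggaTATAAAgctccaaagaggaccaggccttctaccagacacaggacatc
Krt34: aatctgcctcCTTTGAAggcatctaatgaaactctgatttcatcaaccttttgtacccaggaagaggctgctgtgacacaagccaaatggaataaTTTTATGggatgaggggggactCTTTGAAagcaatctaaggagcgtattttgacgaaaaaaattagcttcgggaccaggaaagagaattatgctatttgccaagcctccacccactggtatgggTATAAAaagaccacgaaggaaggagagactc
Krt39: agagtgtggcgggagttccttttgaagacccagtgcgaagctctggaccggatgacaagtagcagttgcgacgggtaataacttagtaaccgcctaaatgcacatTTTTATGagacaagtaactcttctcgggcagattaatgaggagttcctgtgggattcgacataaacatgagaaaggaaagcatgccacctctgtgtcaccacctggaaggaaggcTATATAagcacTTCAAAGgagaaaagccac
Krt40: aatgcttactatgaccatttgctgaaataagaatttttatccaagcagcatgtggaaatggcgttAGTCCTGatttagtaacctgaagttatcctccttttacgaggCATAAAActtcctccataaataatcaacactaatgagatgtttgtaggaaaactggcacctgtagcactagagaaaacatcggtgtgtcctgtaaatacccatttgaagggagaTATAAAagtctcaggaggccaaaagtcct
TATANA, the core of the TATA box that places the transcription start, occurred in 7 of 7 members and in 22.6% of 32851 promoter windows of the same length. CTTTGAA, the core of the Lef1 and Tcf recognition sequence, occurred in 5 of 7 (Krt31, Krt32, Krt33b, Krt34 and Krt39) and in 4.46% of all windows. TTTTATG occurred in 6 of 7, between 143 and 160 bases before the start, and in 3.77% of all windows, and AGTCCTG in 5 of 7 and in 4.75%. TTTTATG and AGTCCTG were picked after the sequences were seen. TATANA can overlap itself. A match is a stretch of letters and no evidence of binding, and members that arose by duplication share sequence.

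Over the 24 libraries Krt33a had the highest mean level of the 9 (796 FPKM, place 75 of all genes in the table), followed by Krt34 (479), Krt31 (467) and Krt33b (429). Krt35 (277) and Krt32 (108) came next, and Krt40 (31.3), Krt39 (28.2) and Krt36 (20.9) were far lower. The coding sequences of Krt31, Krt33a, Krt33b and Krt34 were 87.2% to 93.3% identical, and between 12.0% and 20.8% of the stretches of 50 bases in each of these transcripts also occurred in a given other one of them. Reads from shared stretches may therefore have been misplaced among these 4 genes or not counted. The single values of these 4 are thus less certain than those of the other 5, whose coding sequences were at most 70.5% identical to any member.

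**Figure D1:**
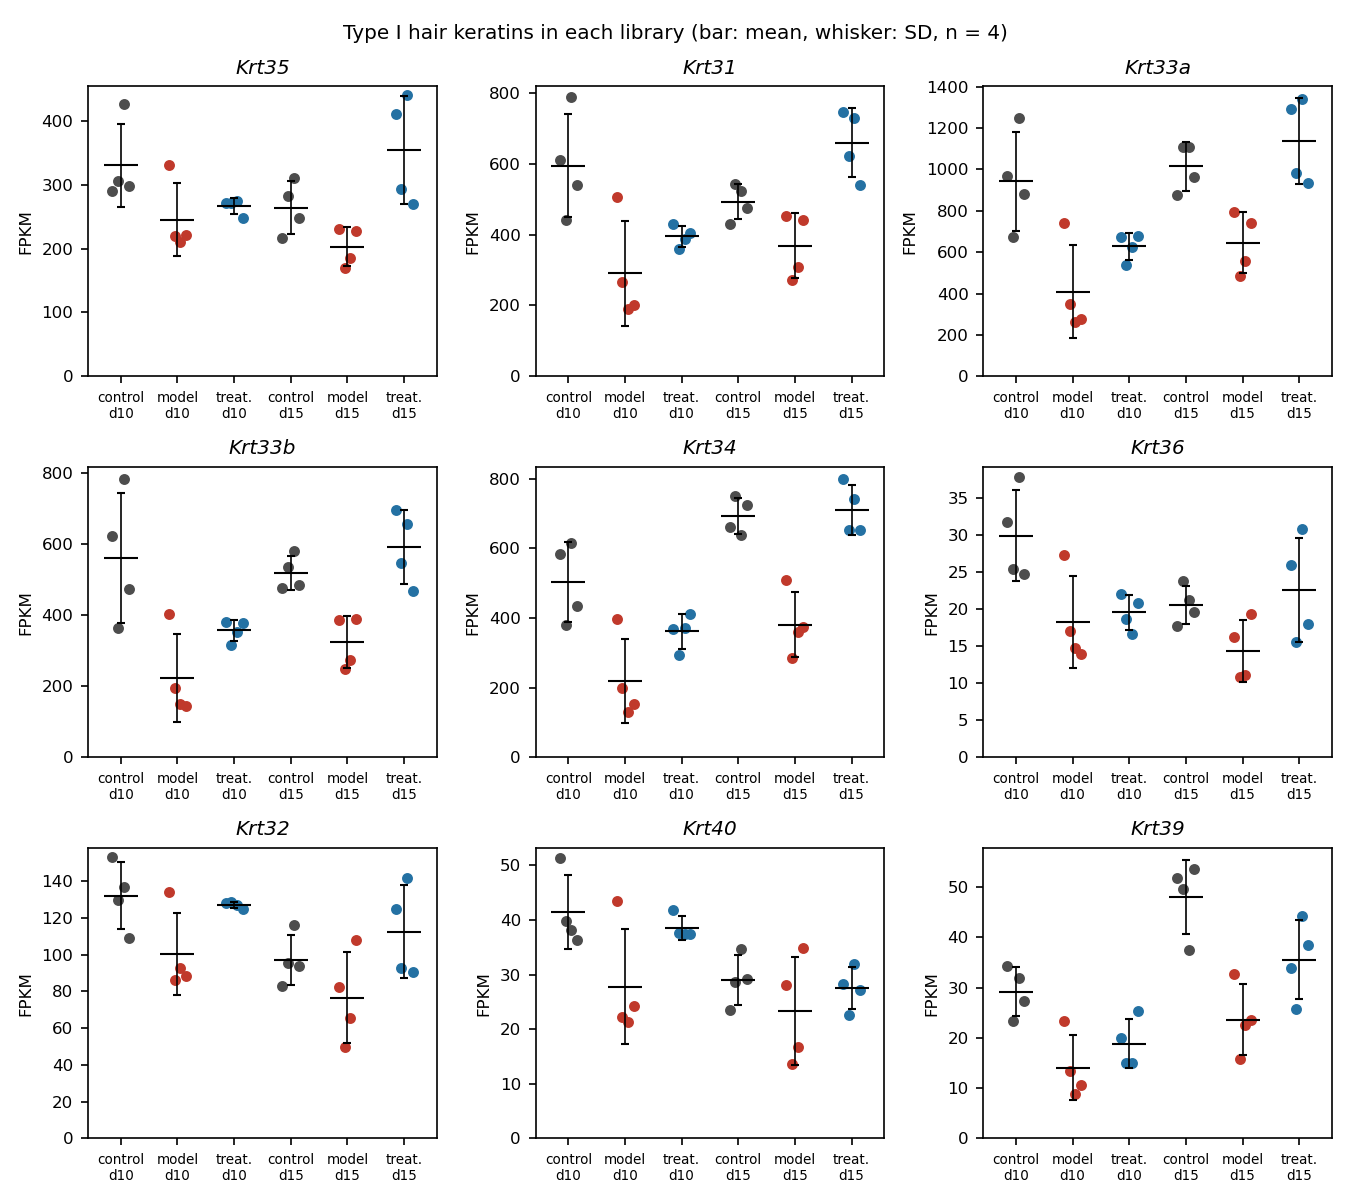
FPKM of the 9 type I hair keratins (y axis, from 0) in each of 24 libraries, by group (x axis, d10 and d15 for day 10 and day 15); points are mice, the bar is the mean and the whisker the SD of 4. At day 10 a single model library (replicate 1) reaches the control range in all 9 genes, and at day 15 the model libraries of Krt34 (284 to 509) lie below the control (638 to 750) and treatment libraries (652 to 799).

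Model against control at day 10 asks what the injected androgen changed. Of 9 type I hair keratins 6 fell (Krt31, Krt33a, Krt33b, Krt34, Krt36 and Krt39) and none was higher, with a median log2 difference of -1.08 beside -0.02 for all genes tested. Here a gene is said to have risen or fallen when its adjusted p (limma, Benjamini-Hochberg over all genes tested) was under 0.05, and 7.04% of all genes tested fell by this rule. All 9 had an unadjusted p under 0.05, and limma's voom on the recovered reads also called 6. The share of all genes at an unadjusted p under 0.05 is not given. Counts of members by that rule, here and below, therefore have no background to be judged against. The 6 called members had log2 differences of -1.40 to -0.71, and Krt40, Krt35 and Krt32, which were not called, of -0.61 to -0.41; the differences among the 9 were not tested. The libraries of both groups overlapped in all 9, while 9.3% of all genes tested were lower without overlap.

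Krt33b, a cortex keratin, was at 623, 363, 782 and 472 FPKM in control replicates 1 to 4 and at 404, 194, 151 and 143 in model replicates 1 to 4. Model replicates 2 to 4 were below every control library, and model replicate 1 was above the lowest control library. The mean went from 560 ± 182 to 223 ± 123 FPKM (SD, n = 4), a log2 difference of -1.40 (standard error, SE, 0.26; limma adjusted p = 0.00359). Krt33a, its closest relative and the most abundant member, was at 970, 673, 1250 and 881 FPKM in control and at 741, 350, 264 and 278 in model skin (log2 difference -1.31, SE 0.25, limma adjusted p = 0.00397). Again only the first model library reached the control range.

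Krt34, the keratin of the upper cortex, was at 584, 380, 616 and 434 FPKM in control and at 396, 199, 131 and 152 in model libraries (log2 difference -1.30, SE 0.24, limma adjusted p = 0.00363). Krt31, a further cortex keratin, was at 609, 442, 787 and 539 against 507, 265, 191 and 200 FPKM (log2 difference -1.11, SE 0.24, limma adjusted p = 0.0073). In both genes model replicate 1 was above the lowest control library and the other 3 model libraries were below all 4. Krt39, a keratin of cuticle and cortex at a far lower level, was at 34.4, 23.3, 31.9 and 27.3 FPKM in control and at 23.3, 13.5, 8.82 and 10.7 in model skin (log2 difference -1.08, SE 0.25, limma adjusted p = 0.0104), and model replicate 1 was again level with the lowest control library. Krt36 was at 31.8, 25.4, 37.8 and 24.7 against 27.3, 17.0, 14.8 and 13.9 FPKM, a log2 difference of -0.71 (SE 0.22, limma adjusted p = 0.0374). Its call was the least firm of the 6.

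The other 3 members did not pass. Krt35, the earliest of the cortex keratins, had libraries at 290, 306, 427 and 298 FPKM in control and at 331, 219, 211 and 221 in model skin (log2 difference -0.43, SE 0.17, limma adjusted p = 0.0917). The cuticle keratin Krt32 was at 153, 130, 137 and 109 against 134, 86.5, 92.9 and 88.2 FPKM (log2 difference -0.41, SE 0.19, limma adjusted p = 0.152). Krt40, also of the cuticle, was at 51.3, 39.9, 38.1 and 36.4 against 43.4, 22.2, 21.3 and 24.2 FPKM (log2 difference -0.61, SE 0.23, limma adjusted p = 0.0807). In each of the 3, model replicates 2 to 4 were below all control libraries and model replicate 1 was not. Krt35 made up 10.6% ± 1.72 (SD, n = 4) of the summed FPKM of the 9 members in control skin and 16.9% ± 3.25 in model skin, while Krt33b went from 17.4% ± 1.75 to 14.0% ± 1.19. The libraries overlapped by little in both shares (highest control 12.9% and lowest model 12.7% for Krt35).

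Model replicate 1 stood apart from its group in the hair keratins. The median log2 deviation of the 9 members in this library from the mean of replicates 2 to 4 was 1.04. It was also high in the summed type II hair keratins (2780 FPKM against 1100 to 1480 in replicates 2 to 4) and the summed type I keratins of the inner root sheath (4310 against 2430 to 2800). Without it all 9 members were called, at log2 differences of -1.73 (Krt33b) to -0.55 (Krt32). Over all genes this fit called 2405 in either direction, in place of 1803. Krt36 was not called without control replicate 1, 3 or 4, without model replicate 2, 3 or 4, with no filter or when only the groups compared entered the fit (limma adjusted p up to 0.134). The calls of Krt31, Krt33a, Krt33b, Krt34 and Krt39 held under all 35 alternatives run.

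At day 15 model skin again had lower levels, and fewer members passed. Of the 9, Krt34 and Krt39 fell and 7 were not called, against 6.56% of all genes tested that fell. The median log2 difference of the 9 was -0.52, with a range from -1.03 to -0.38, beside -0.03 for all genes tested. At an unadjusted p under 0.05 there were 6, and voom called 2. The libraries of 4 members (Krt33a, Krt33b, Krt34 and Krt39) did not overlap, all lower in model skin, which held for 12.3% of all genes tested.

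Krt34 was at 661, 750, 638 and 725 FPKM in control and at 509, 284, 360 and 373 in model skin (log2 difference -0.89, SE 0.24, limma adjusted p = 0.0285). Every model library was below every control library. Krt39 was at 51.8, 49.6, 37.4 and 53.6 against 32.8, 15.7, 22.5 and 23.6 FPKM (log2 difference -1.03, SE 0.25, limma adjusted p = 0.0165), also with no overlap. Krt33a, at 875, 1110, 1110 and 961 against 793, 485, 559 and 743 FPKM, had a log2 difference of -0.67 (SE 0.25, limma adjusted p = 0.0815). Krt33b was at 476, 534, 580 and 485 against 386, 247, 274 and 388 FPKM (log2 difference -0.70, SE 0.26, limma adjusted p = 0.0806). These 2 cortex keratins were separated by library and yet not called.

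For the remaining 5 members the groups overlapped. Krt31 was at 430, 543, 524 and 476 FPKM in control and at 451, 271, 308 and 442 in model skin (log2 difference -0.45), so that model replicates 1 and 4 reached the control range. Krt35 (216, 282, 311 and 248 against 230, 170, 185 and 227 FPKM, log2 difference -0.38) and Krt36 (17.7, 23.8, 21.2 and 19.6 against 16.2, 10.8, 11.1 and 19.3 FPKM, log2 difference -0.52) showed the same overlap by the same 2 libraries or 1 of them. Krt32 (83.0, 95.7, 116 and 93.8 against 82.7, 50, 65.5 and 108 FPKM) and Krt40 (23.5, 28.7, 34.6 and 29.2 against 28.1, 13.7, 16.7 and 34.8 FPKM) each had a log2 difference of -0.38. In the cuticle keratins Krt32 and Krt40, model replicate 4 was above 3 or all of the control libraries.

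The count of 2 depended on single libraries. It was 0 without control replicate 4 or without model replicate 2 of day 15, 1 without control replicate 2 or 3 or model replicate 3, and 4 without model replicate 1 of day 10, which enters through the shared estimate of spread. It was 4 with array weights, which give noisier libraries less weight. Over all genes array weights called 4592 in either direction, in place of 1408. Whether the difference between model and control changed from day 10 to day 15 was tested directly: 0 of 9 members passed with limma, 0 had an unadjusted p under 0.05 and voom called 0, as for 0% of all genes tested. The change was largest in Krt33b (0.70, SE 0.37, 95% interval -0.07 to 1.47) and smallest in Krt32 (0.03, SE 0.27, interval -0.54 to 0.59).

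**Figure D2:**
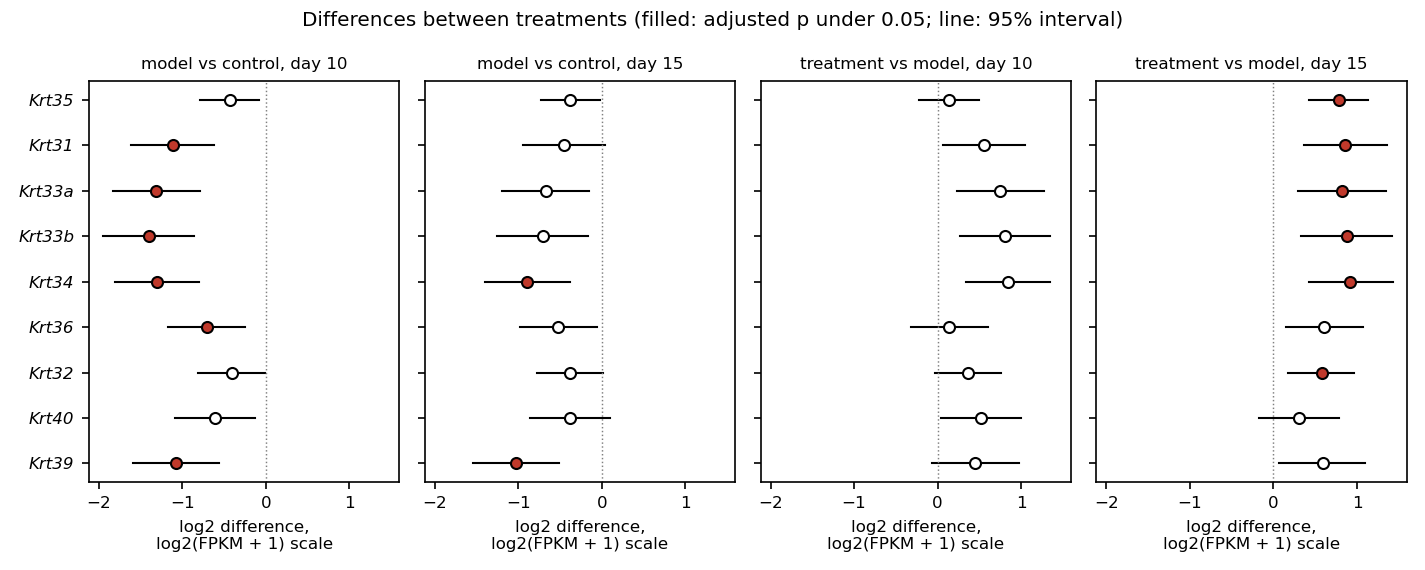
Log2 difference of each member (y axis) on the log2(FPKM + 1) scale (x axis) in the 4 comparisons of regimens, with its 95% interval; filled points passed at an adjusted p under 0.05. At day 10 model skin was lower in 6 filled members, and at day 15 treatment skin was higher than model skin in 6.

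Treatment against model asks what the HLX extract changed in mice given the androgen, and it shares the model libraries with the comparison above. At day 10 none of the 9 members was called by limma (0.192% of all genes tested were called in either direction). The values were higher in treatment skin for all 9, with a median log2 difference of 0.52 beside -0.03 for all genes tested, 5 had an unadjusted p under 0.05 and voom called 0. The libraries overlapped in all 9, with model replicate 1 above the lowest treatment library each time, while 2.75% of all genes tested were higher without overlap. Krt34, for example, was at 368, 294, 372 and 413 FPKM in treatment skin and at 396, 199, 131 and 152 in model skin (log2 difference 0.84, 95% interval 0.34 to 1.35, limma adjusted p = 0.211). Krt35 was at 271, 272, 274 and 248 against 331, 219, 211 and 221 FPKM (log2 difference 0.14, interval -0.22 to 0.50, limma adjusted p = 0.824). Treatment libraries lay close together in the 3 genes of lowest spread, Krt32 (125 to 129 FPKM), Krt35 and Krt40 (37.4 to 41.8 FPKM).

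Without model replicate 1, 4 members were higher at day 10 (Krt31, Krt33a, Krt33b and Krt34), and with array weights 6. Over all genes these fits called 82 and 1502 in either direction, in place of 25. Kidney transcripts separated treatment from model skin at this day, and their part in these differences was not tested.

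At day 15, 6 of 9 members rose with treatment (Krt31, Krt32, Krt33a, Krt33b, Krt34 and Krt35), none fell, and 10.3% of all genes tested rose. The median log2 difference was 0.78 beside -0.02 for all genes tested. At an unadjusted p under 0.05 there were 8, and voom called 6. The libraries of 5 (Krt31, Krt33a, Krt33b, Krt34 and Krt35) did not overlap, all higher in treatment skin, as for 7.98% of all genes tested.

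Krt35, the early cortex keratin, was at 410, 294, 441 and 270 FPKM in treatment skin and at 230, 170, 185 and 227 in model skin (log2 difference 0.78, SE 0.17, limma adjusted p = 0.00515). Its lowest treatment library was above its highest model library. Krt34 was at 799, 653, 742 and 652 against 509, 284, 360 and 373 FPKM (log2 difference 0.92, SE 0.24, limma adjusted p = 0.0134), and Krt31 at 747, 622, 730 and 539 against 451, 271, 308 and 442 FPKM (log2 difference 0.86, SE 0.24, limma adjusted p = 0.0165). In all 3 genes treatment replicates 1 and 3 were the 2 highest of the 8 libraries. Krt33b was at 694, 546, 656 and 467 against 386, 247, 274 and 388 FPKM (log2 difference 0.88, SE 0.26, limma adjusted p = 0.0237). Krt33a was at 1290, 983, 1340 and 932 against 793, 485, 559 and 743 FPKM (log2 difference 0.82, SE 0.25, limma adjusted p = 0.0262).

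Krt32, of the cuticle, also rose, with 125, 92.8, 142 and 90.4 FPKM against 82.7, 50, 65.5 and 108 (log2 difference 0.58, SE 0.19, limma adjusted p = 0.0388). Its model replicate 4 was above 2 of the treatment libraries. Krt36 (26.0, 15.5, 30.8 and 18 against 16.2, 10.8, 11.1 and 19.3 FPKM, log2 difference 0.61, limma adjusted p = 0.0569) and Krt39 (33.9, 25.8, 44.3 and 38.4 against 32.8, 15.7, 22.5 and 23.6 FPKM, log2 difference 0.59, limma adjusted p = 0.0964) overlapped and did not pass. For Krt40, at 28.3, 22.6, 32.0 and 27.2 against 28.1, 13.7, 16.7 and 34.8 FPKM, the highest library of all 8 was a model library (log2 difference 0.31, interval -0.17 to 0.79, limma adjusted p = 0.346).

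The calls at day 15 changed with the libraries that were fitted. When only the 8 libraries compared entered the fit, 0 members were called (limma adjusted p up to 0.134 for the 6), and 0 of all genes tested. The count was 2 without model replicate 2 or treatment replicate 1, 3 without model replicate 3, 4 without treatment replicate 3 and 8 without model replicate 1, and quantile normalization gave 3 and array weights 2. Without the 4 treatment libraries with low Ddx3y it was 3 (Krt32, Krt35 and Krt36), with treatment replicate 3 as the lone treatment library of day 15 and its spread taken from the other groups. A test of whether the treatment difference changed between days called 0 of 9 members with limma and with voom, against 0.0997% of all genes tested. The 1 member at an unadjusted p under 0.05 was Krt35 (change 0.64, SE 0.24, limma adjusted p = 0.229).

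Treatment against control shares its libraries with the comparisons above. At day 10, 0 of 9 members were called by limma or voom (3.24% of all genes tested were called in either direction), while 5 were lower at an unadjusted p under 0.05 and the median log2 difference was -0.56 beside -0.05. Krt31, Krt35 and Krt36 had treatment libraries all below the control libraries, as 12.4% of all genes tested did. The largest difference was that of Krt39, with treatment libraries at 20, 15, 15 and 25.3 FPKM (log2 difference -0.63, interval -1.14 to -0.11, limma adjusted p = 0.131). Krt32 and Krt40 were the members with the smallest difference from control, at -0.05 (interval -0.44 to 0.35) and -0.09 (interval -0.57 to 0.39). When only the groups compared entered the fit 3 members were lower (Krt31, Krt36 and Krt39), and with array weights 6. Over all genes these fits called 2229 and 4485 in either direction, in place of 423. At day 15, 0 of 9 were called by limma or voom (0.314% of all genes tested were called), 1 was higher at an unadjusted p under 0.05 (Krt35, log2 difference 0.40, interval 0.05 to 0.76), and the 9 differences ran from -0.44 (Krt39) to 0.41 (Krt31). A p that misses the threshold does not show that treatment and control skin were alike, and the interval of Krt31, for example, ran from -0.08 to 0.91. Over all genes the number called at day 15 went from 41 to 0 without treatment replicate 1, to 2665 without treatment replicate 3 and to 1820 with array weights, while the number of members called was 0 in each.

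The 6 groups can be put in order by their mean. For Krt34 the order was treatment at day 15 (712 ± 71.7 FPKM, SD, n = 4), control at day 15 (693 ± 52.9), control at day 10 (504 ± 114), model at day 15 (381 ± 93.4), treatment at day 10 (362 ± 49.4) and model at day 10 (220 ± 121). The first pair, and model at day 15 and treatment at day 10, differed by less than their SDs. For Krt32 it was control at day 10 (132 ± 18.3), treatment at day 10 (127 ± 1.62), treatment at day 15 (112 ± 25.1), model at day 10 (100 ± 22.4), control at day 15 (97.1 ± 13.7) and model at day 15 (76.6 ± 24.9), with each neighbour nearer to the next than the larger of their SDs. By its mean Krt34 was highest in treatment and control skin of day 15, and Krt32 in the same regimens at day 10. Krt33a shared the highest groups of Krt34, and Krt40 those of Krt32. Other cortex keratins had another order. In Krt31, Krt33b and Krt35 treatment at day 15 (659, 591 and 354 FPKM) was followed by control at day 10 (595, 560 and 331).

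Between the days, the differences of members had opposite signs. In control skin 0 of 9 passed with limma or voom (4.81% of all genes tested were called), and 4 had an unadjusted p under 0.05, 1 higher (Krt39) and 3 lower at day 15 (Krt32, Krt36 and Krt40). Krt39 went from 29.2 ± 4.91 to 48.1 ± 7.29 FPKM (SD, n = 4; log2 difference 0.70, SE 0.25, limma adjusted p = 0.0931) and Krt40 from 41.4 ± 6.75 to 29.0 ± 4.52 FPKM (-0.50, SE 0.23, limma adjusted p = 0.192). Neither overlapped between the days. Krt34 was also higher without overlap (log2 difference 0.49, limma adjusted p = 0.230) and Krt36 lower (-0.51, limma adjusted p = 0.169). So 2 members were higher and 2 lower without overlap, beside 7.01% and 15.4% of all genes tested. When only the groups compared entered the fit, Krt39 was called higher and Krt32, Krt36 and Krt40 lower, and array weights called 5. Over all genes these fits called 1938 and 3683 in either direction, in place of 627.

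In model skin 1 of 9 rose, Krt34, from 220 ± 121 to 381 ± 93.4 FPKM (log2 difference 0.90, SE 0.24, limma adjusted p = 0.029), while 1.62% of all genes tested rose. Krt33a (0.77, limma adjusted p = 0.0603) and Krt39 (0.75, limma adjusted p = 0.0621) had similar differences and did not pass. The libraries of both days overlapped in all 9 (15.4% of all genes tested did not overlap, in either direction). Without model replicate 1 of day 10 the count was 5. It was 0 without model replicate 2, 3 or 4 of day 10 or replicate 1 or 3 of day 15 and when only the groups compared entered the fit, and 3 without replicate 2 of day 15. Without replicate 4 of day 15, Krt34 was called higher and Krt32 lower (log2 difference -0.60, limma adjusted p = 0.044).

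In treatment skin 3 of 9 rose between the days (Krt33a, Krt34 and Krt39), beside 2.11% of all genes tested. Krt34 went from 362 ± 49.4 to 712 ± 71.7 FPKM (log2 difference 0.98, SE 0.24, limma adjusted p = 0.0169), Krt39 from 18.8 ± 4.93 to 35.6 ± 7.79 FPKM (0.89, SE 0.25, limma adjusted p = 0.0288) and Krt33a from 628 ± 64.6 to 1130 ± 207 FPKM (0.84, SE 0.25, limma adjusted p = 0.0387). These 3, Krt31 and Krt33b were higher without overlap (4.65% of all genes tested) and Krt40 was lower without overlap (9.57%), with day 10 libraries of 37.4 to 41.8 FPKM and day 15 libraries of 22.6 to 32.0. Treatment skin at both days lacked the kidney transcripts, unlike control and model skin. The count was 0 without the 4 libraries with low Ddx3y, 0 without treatment replicate 2 of day 10 or replicate 1 of day 15, 1 without treatment replicate 1 or 3 of day 10, 2 without treatment replicate 4 of day 10 or replicate 3 of day 15, and 5 without model replicate 1 of day 10.

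Markers of other cells moved with the day as well. In control skin 4 of 6 melanocyte, 2 of 8 proliferation, 2 of 6 sebaceous gland and 1 of 7 suprabasal epidermis genes fell (3.33% of all genes tested fell). So did 1 of 12 hair matrix transcription factors and 1 of 9 further shaft and sheath proteins. Of 8 macrophage markers 1 rose (193 of 13039 genes tested rose). In model skin 5 of 6 melanocyte, 5 of 7 suprabasal and 4 of 8 proliferation genes fell (6.85% of all genes tested). So did 2 of 6 sebaceous and 1 of 6 basal epidermis genes, 1 of 12 matrix transcription factors and 1 of 9 further shaft and sheath proteins. Of 7 type II hair keratins 3 rose, of 7 inner root sheath keratins 1, and of the 9 further proteins 1 (1.62% of all genes tested). In treatment skin 5 of 6 sebaceous, 4 of 6 basal, 2 of 7 suprabasal and 2 of 6 fibroblast genes fell (7.53% of all genes tested). So did 1 of 12 matrix transcription factors. Of 7 inner root sheath keratins 6 rose, of 7 type II hair keratins 3 and of 9 further shaft and sheath proteins 4 (2.11% of all genes tested). The melanocyte markers summed to 219 to 349 FPKM at day 10 and 154 to 200 at day 15 in control skin, and to 183 to 268 and 92.4 to 175 in model skin, without overlap in both. In treatment skin the sums were 209 to 239 and 189 to 238, which overlapped. The part of these cells in the differences between days was not tested.

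**Figure D3:**
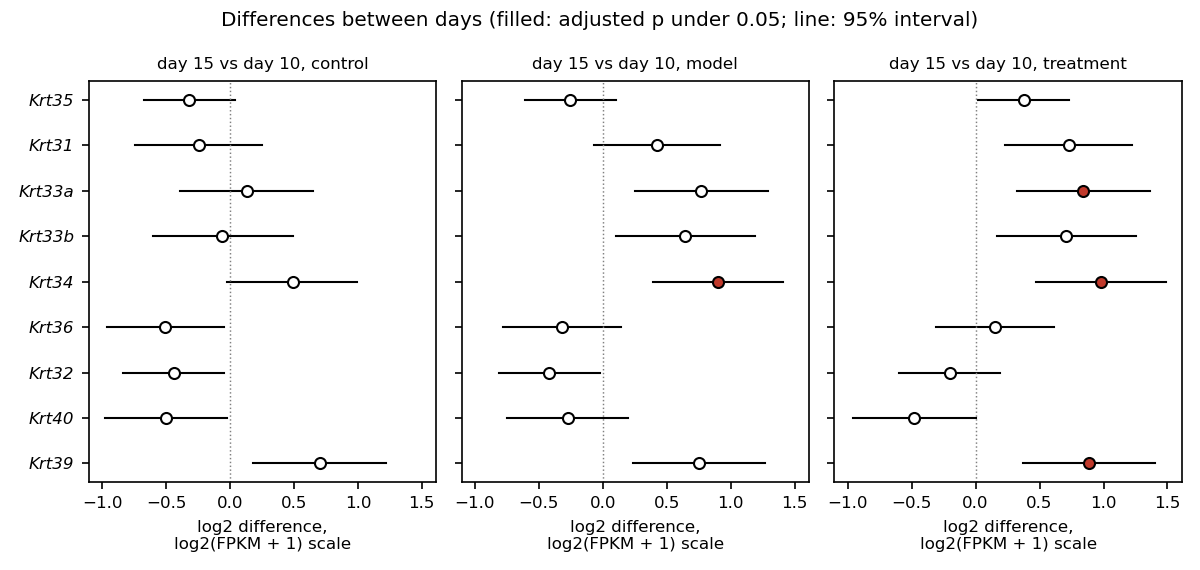
Log2 difference between day 15 and day 10 of each member (y axis) on the log2(FPKM + 1) scale (x axis) within each regimen, with its 95% interval; filled points passed at an adjusted p under 0.05. Krt34 and Krt39 lie right of 0 and Krt32 and Krt40 left of 0 in all 3 regimens, and the filled points are Krt34 in model and Krt33a, Krt34 and Krt39 in treatment skin.

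The pair of neighbours Krt39 and Krt40 shows this most plainly. The ratio of Krt39 to Krt40 FPKM was 0.711 ± 0.108 (SD, n = 4), 0.500 ± 0.0887 and 0.488 ± 0.132 in control, model and treatment skin at day 10 and 1.71 ± 0.466, 1.08 ± 0.284 and 1.28 ± 0.135 at day 15. In each regimen the lowest ratio of day 15 (1.08, 0.680 and 1.14) was above the highest of day 10 (0.837, 0.607 and 0.678). The ratio of Krt34 to Krt35, late over early cortex, was 1.54 ± 0.331, 0.854 ± 0.258 and 1.36 ± 0.236 at day 10 and 2.67 ± 0.450, 1.87 ± 0.267 and 2.07 ± 0.321 at day 15. It was lowest in model skin at both days. These ratios were chosen after the values were seen and are given without a test.

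The summed FPKM of the 9 members was 3170 ± 744 (SD, n = 4) in control, 1550 ± 717 in model and 2210 ± 166 in treatment skin at day 10, and 3180 ± 270, 2060 ± 461 and 3650 ± 589 at day 15. Their partners, the 7 type II hair keratins, added up to a slightly higher level in all libraries but 1, and 6 of 7 fell at day 10 and 1 of 7 at day 15 in model against control, and 5 of 7 rose in treatment against model at day 15 (with 7.04%, 6.56% and 10.3% of all genes tested called in those directions). The ratio of the type I to the type II sum was 0.894 to 0.904 in the control libraries of day 10 and 0.926 to 1.01 in the model libraries, without overlap. In treatment skin at day 10 it was 0.890 to 0.960, which overlapped both. At day 15 it was 0.880 to 0.915 in control, 0.894 to 0.942 in model and 0.905 to 0.915 in treatment skin, and these ranges overlapped. Over the 24 libraries the ratio ran from 0.880 to 1.01 while the type I sum ran from 1090 to 4150.

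**Figure D4:**
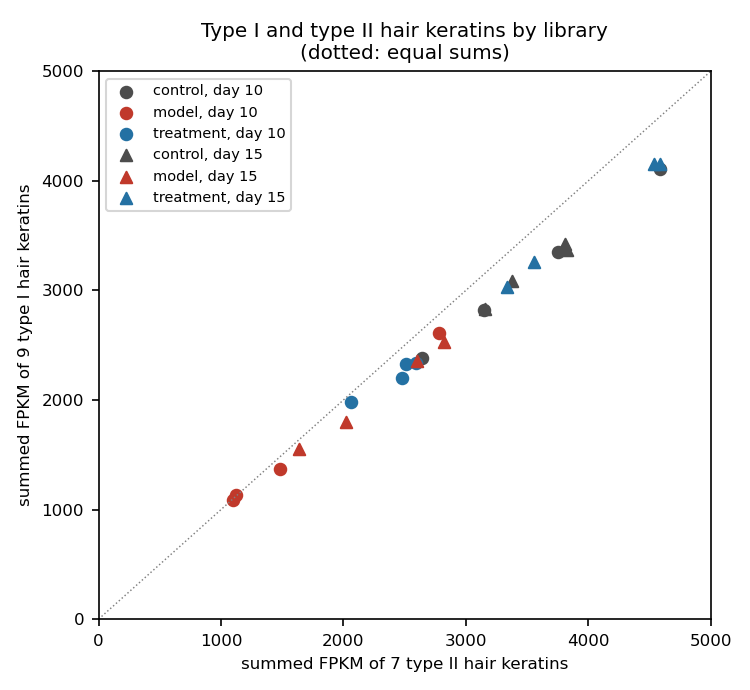
Summed FPKM of the 9 type I hair keratins (y axis) against that of the 7 type II hair keratins (x axis), 1 point per library, with colors for the regimen and shapes for the day; the dotted line marks equal sums. All but 1 library lie below the line, and 3 model libraries of day 10 (type I sums of 1090, 1130 and 1370) are at its lower end.

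Keratins of the inner root sheath, the sleeve that molds the shaft, changed in the same directions. Of the 7 in the table (Krt25, Krt26, Krt27, Krt28, Krt71, Krt72 and Krt73), 7 fell at day 10 and 6 at day 15 in model against control, and 6 rose in treatment against model at day 15 (beside the same 7.04%, 6.56% and 10.3% of all genes tested), with Krt72 at -1.13, -1.03 and 0.91. The median of the list at day 10 (-0.71) was nearer to 0 than that of the 9 members (-1.08). At day 15 the list (-0.63) was further from 0 than the 9 members (-0.52). The sum of the 9 over the sum of the 4 type I sheath keratins (Krt25 to Krt28) was 0.654 ± 0.0596 (SD, n = 4) in control, 0.497 ± 0.0743 in model and 0.611 ± 0.0435 in treatment skin at day 10 and 0.615 ± 0.0563, 0.590 ± 0.0347 and 0.633 ± 0.0605 at day 15. Control and model ranges of day 10 overlapped (0.574 to 0.703 against 0.447 to 0.605).

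Of 12 transcription factors of the hair matrix, which switch on keratin genes or set the fate of matrix cells, 6 fell at day 10 (7.04% of all genes tested fell), with Prdm1 (-0.65), Foxn1 (-0.87) and Ovol1 (-0.66) the 3 of smallest p. At day 15 it was 4 of 12 (6.56%), with Dlx3 (-0.64), Ovol1 (-0.64) and Foxq1 (-0.81) first. With treatment at day 15, 8 of 12 rose (10.3%), Dlx3 (0.68), Msx2 (0.74) and Foxn1 (0.74) first. Of 9 further shaft and sheath proteins 8 fell at day 10 and 6 at day 15, and 6 rose with treatment at day 15, beside the same shares of all genes. Gprc5d, a receptor-like protein of cortex cells (-1.27, -0.89 and 0.98), and Tgm3, a transglutaminase that cross-links the shaft (-1.28, -0.78 and 0.96), were among them each time. The 8 proliferation genes had medians of -0.14, -0.16 and 0.22 in these 3 comparisons, and their smallest limma adjusted p was that of Ccnb1 with treatment (0.35, adjusted p = 0.0671). All 8 were below 0 in model against control at both days and above 0 in treatment against model at day 15. In treatment against model at day 10 all 8 were below 0 (median -0.14), unlike the 9 members.

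Markers of other cells moved beside the hair keratins. Of 8 macrophage markers 8 rose in model skin at day 10 (6.79% of all genes tested rose), with summed FPKM of 313 to 413 in control, 736 to 1060 in model and 644 to 922 in treatment libraries, and none of the 8 was listed at 0. At day 15, 2 of 8 rose in model skin (4.23% of all genes tested), with sums of 466 to 786, 892 to 1420 and 342 to 1410. Of 6 fibroblast markers 2 rose at each day, with sums of 4070 to 6230 in control and 7070 to 10800 in model skin at day 10. Of 6 basal epidermis genes 2 fell in model skin at day 15 (Krt5, -0.69, and Krt14, -0.68), and of 7 suprabasal genes 1 (Ivl, -0.76). By the same rule 6.56% of all genes tested fell. The basal genes had a median of -0.41 and sums of 1470 to 1660 in control and 713 to 1300 in model libraries. In treatment against control at day 10, 5 of 8 macrophage markers rose (2.2% of all genes tested rose), with a median of 1.07. In treatment against model at day 15, 2 of 8 macrophage and 2 of 6 fibroblast markers fell (9.32% of all genes tested fell). Of 6 melanocyte markers 3 rose (10.3% of all genes tested rose). Melanocytes supply pigment to the same growing follicles, and their summed markers were at 92.4 to 175 FPKM in model and 189 to 238 in treatment libraries. The part of these cells in the levels of the keratins was not tested.

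**Figure D5:**
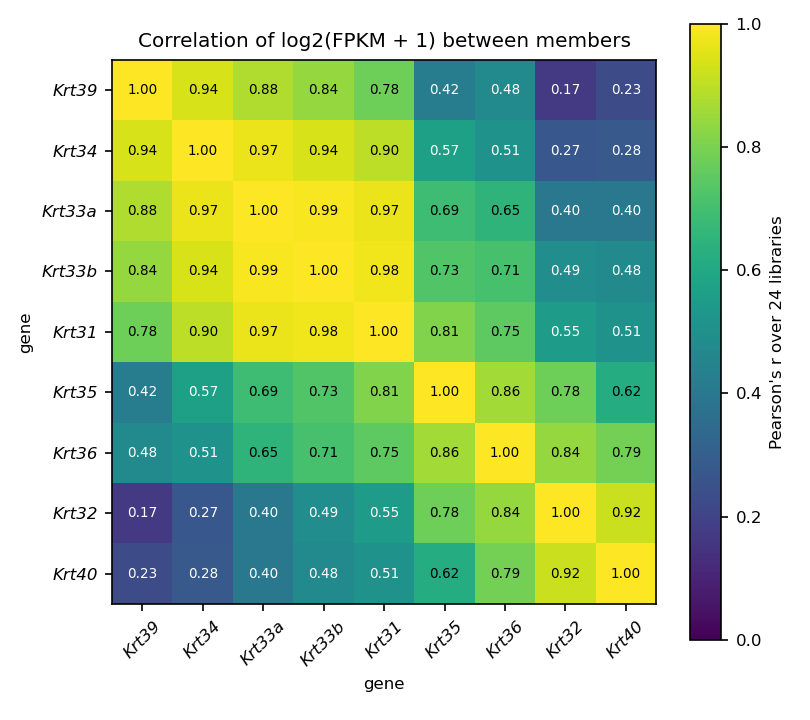
Pearson's r of log2(FPKM + 1) between members (both axes) over 24 libraries, as a color and a number in each cell. Krt31, Krt33a, Krt33b and Krt34 form a block of 0.90 to 0.99, and the lowest value is that of Krt32 with Krt39 (0.17).

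The members varied along more than 1 line. Over the 24 libraries, which share the group differences, Krt31, Krt33a, Krt33b and Krt34 correlated at 0.90 to 0.99. The part of reads misplaced among these similar sequences was not tested. Krt39 went with Krt34 (0.94) and hardly with its neighbour Krt40 (0.23). Krt40 went with Krt32 (0.92), and Krt35 with Krt36 (0.86). Within groups, after the group means were taken out, Krt39 and Krt40 correlated at 0.62 and Krt32 and Krt40 at 0.91.

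Among all other genes tested, the 1 most like each member was a type II hair keratin in 6 of 9 cases. These were Krt87 for Krt31 (Pearson's r 0.990 over 24 libraries), Krt82 for Krt32 (0.957), Krt83 for Krt33a (0.994) and Krt33b (0.991), Krt86 for Krt34 (0.996) and Krt85 for Krt35 (0.954). Krt82 is itself known as a keratin of the cuticle and Krt85 as an early one. For Krt39 and Krt40 it was a keratin-associated protein gene of the shaft matrix, Krtap22-2 (0.987) and Krtap24-1 (0.973), and for Krt36 Dapl1 (0.959), followed by the metallothionein gene Mt4 (0.958). Foxn1, the transcription factor lost in nude mice, was second for Krt31 (0.980). The genes most like the mean of the 9 were Calhm4 (0.982), Csdc2 (0.978), Cars (0.974), Krt87 (0.973) and Lap3 (0.970). The libraries share their group means and any difference in follicle content, so these values describe likeness and carry no test.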

How the data were processed

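Poly(A) RNA from skin of 24 mice was sequenced. The authors deposited FPKM per gene symbol. Reads were trimmed with fastp, aligned with HISAT2 to GRCm39 and counted with HTSeq, per the submitters' processing notes, and versions, annotation and strand setting are not given in the sources used here. Whole reads were recovered from the FPKM steps for 100.0% of 18715 genes above 0 (within 0.01 read below 5000 reads and 0.05 above, highest deviation 0.000213), and all 11834 genes with enough reads gave a whole gene length. Reads carry no molecular identifiers.

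Groups and replicate numbers came from the sample titles. A gene was kept when 4 or more libraries reached an FPKM of 1 (13039 kept, 5853 removed). limma 3.58.1 under R 4.3.3 (eBayes with trend and robust) was fitted to log2(FPKM + 1) of all 24 libraries, with 1 mean per group, in 11 comparisons. Tests were two-sided, with Benjamini-Hochberg adjustment over all genes tested and a threshold of 0.05. Log2 differences understate changes of low genes. The fit was tested on simulated data. All 9 members are named in each comparison, and other genes by rule: per list the 3 of smallest p, and per member the 3 most correlated genes. Members and lists were chosen with earlier results of these data known. Same-numbered libraries of different groups were taken as different mice.

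Promoters were matched by symbol in RefSeq GRCm38.p6, and coding sequences compared in GENCODE M21 transcripts (GRCm38). Alternatives changed the pseudocount (0.1), the filter (none, or a mean FPKM of 5), the scaling (median of ratios, common total, quantile), the libraries fitted (only those compared, or without each in turn) and the model (array weights, replicate block, voom on recovered reads). Added after seeing the data was a fit without 4 treatment libraries in which Y-linked transcripts were low.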

Additional observations from a re-analysis of the deposited data

Results flagged for a closer look

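Of 54 groups (9 members in 6 groups of 4 libraries), 6 held a library far from the other 3 by Dixon's test, and chance flags about 1 in 20 groups. All 6 were at day 10. In model skin, replicate 1 was high in Krt32 (134 FPKM, nearest other library 92.9), Krt35 (331, nearest 221) and Krt40 (43.4, nearest 24.2). In control skin, replicate 3 was high in Krt35 (427, nearest 306). In treatment skin, replicate 4 was low in Krt35 (248, nearest 271) and replicate 1 high in Krt40 (41.8, nearest 37.6), where the other 3 libraries lay close together. The members share their libraries, so the 3 values of model replicate 1 are 1 observation of that mouse.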

How the results depend on the processing

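No called difference of a member changed direction under any of the 35 alternatives, and the calls of Krt31, Krt33a, Krt33b, Krt34 and Krt39 in model against control at day 10 held throughout. Leaving out each library in turn, the number of members called ranged from 5 to 9 for model against control at day 10, from 0 to 4 at day 15, from 0 to 4 for treatment against model at day 10, from 2 to 8 at day 15, and from 0 to 5 between days in model and in treatment skin. Other settings moved these counts. Array weights gave 4 for model against control at day 15, 6 and 2 for treatment against model at day 10 and day 15, 6 for treatment against control at day 10, 5 between days in each regimen and 1 for the change between days of model against control (Krt31). Over all genes they called 4592, 1502, 2982 and 4485 in the comparisons of regimens, in place of 1408, 25, 2563 and 423. Between days they called 3683, 3347 and 2609 in control, model and treatment skin, in place of 627, 1104 and 1257. For the change they called 66 in place of 0. A fit of only the groups compared gave 0 for treatment against model at day 15, 3 for treatment against control at day 10, and 4, 0 and 5 between days in control, model and treatment skin. Over all genes it called 0, 2229, 1938, 8 and 440 in the same order, in place of 2563, 423, 627, 1104 and 1257. Quantile normalization gave 3 for treatment against model at day 15 and 1 between days in treatment skin, median-of-ratios scaling 3 between days in model skin, and the fit without the low Ddx3y libraries 3 and 0 for treatment against model at day 15 and between days in treatment skin. The cause of these shifts was not tested. Every member had 806 reads or more in every library, and with 1 library per mouse the spread between mice and between library preparations cannot be told apart. Over all pairs of groups, the replicate numbers showed no common pairing. Same-numbered libraries deviated together with r from -0.63 to 0.51 (median 0.05 over 60 pairs), and 5 of 24 libraries correlated best with their own number. Same-numbered libraries of a regimen at both days were not examined apart. With the replicate number as a block, the counts were 6, 2, 0 and 6 in the 4 main comparisons, 0 and 0 for treatment against control, 0, 2 and 3 between days and 0 and 0 for the changes between days.

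Differences that reversed were all uncalled. With array weights they were, in model against control at day 15, Krt32 (0.06) and Krt40 (0.14), in treatment against model at day 15 Krt40 (-0.23), in treatment against control at day 15 Krt34 (-0.02) and Krt36 (-0.05), between days in model skin Krt32 (0.11), Krt36 (0.15) and Krt40 (0.38), and in the change between days of treatment against model Krt31 (-0.13), Krt32 (-0.43), Krt33a (-0.31), Krt33b (-0.38), Krt34 (-0.03) and Krt36 (-0.10). Quantile normalization turned Krt34 in treatment against control at day 15 (-0.01) and Krt33a (0), Krt33b (-0.06) and Krt34 (-0.03) in that change. Median-of-ratios scaling turned Krt32 in treatment against control at day 10 (0.01) and Krt33b between days in control skin (0.03). The fit without the low Ddx3y libraries turned Krt40 in treatment against control at day 15 (0.15) and Krt32 between days in treatment skin (-0.20 to 0.16).

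Leaving out each library in turn crossed 0 in treatment against control for Krt32 (-0.14 to 0.03) and Krt40 (-0.15 to 0.02) at day 10 and Krt34 (-0.02 to 0.08), Krt36 (-0.08 to 0.24) and Krt40 (-0.16 to 0.02) at day 15, between days for Krt33a (-0.02 to 0.28) and Krt33b (-0.24 to 0.12) in control and Krt36 (-0.01 to 0.31) in treatment skin. The same held for the change between days of model against control in Krt32 (-0.16 to 0.21), Krt35 (-0.07 to 0.21) and Krt39 (-0.13 to 0.31), and of treatment against model in Krt33a (-0.26 to 0.24), Krt33b (-0.26 to 0.24), Krt34 (-0.25 to 0.28), Krt39 (-0.12 to 0.31) and Krt40 (-0.44 to 0.01). Over all genes, a common total per library moved the higher share of called genes from 49.1% to 63.0% and from 39.2% to 61.1% in model against control at day 10 and day 15, and from 52.6% to 29.0% in treatment against model at day 15, and the fit of only these groups called 0 in place of 2563. Between days, median-of-ratios scaling moved the higher share from 30.8% to 59.7%, from 19.1% to 54.1% and from 21.9% to 46.2% in control, model and treatment skin, and quantile normalization moved it to 42.9%, 34.7% and 42.7%. Quantile normalization gave 65.1% in treatment against model at day 15, and the common total 8.27% between days in treatment skin, 36.0% in treatment against model and 78.4% in treatment against control at day 10 (48.0% and 67.8% before). Leaving out 1 library, the genes called in model against control went from 1803 to as few as 536 at day 10 (without model replicate 3) and from 1408 to as few as 363 at day 15 (without control replicate 4). The common total also moved the median of all genes between days in treatment skin from -0.06 to -0.12.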
